A study of Danio rerio with 48 samples.

Results

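Heads of zebrafish larvae exposed to 2.8 µM perfluorooctane sulfonic acid (PFOS), a fluorinated surfactant that persists in the environment, were compared with heads of vehicle larvae at 5 days post fertilisation (dpf). Pools were taken by their labelled age and concentration: 6 PFOS pools (replicates C, E, F, G, H and I) and 6 DMSO pools (B, C, E, G, H and I), 12 of the 48 libraries in all. Each library held polyA RNA from 15 pooled heads, cut in front of the swim bladder, of a mixed wild-type line. Single embryos were placed in wells at the dome-to-epiboly stages, all groups carried 0.4% dimethyl sulfoxide (DMSO), the solutions were renewed daily, and plates were kept at 26.0 °C. The other libraries held larvae at 0.88 or 1.57 µM PFOS, and all 4 concentrations at 4 dpf. The p-values refer to the variation among pools within groups, estimated over all 48 libraries and not from the 12 compared pools alone. Whether the pools were drawn from different clutches, and so whether that variation covers clutches, is not stated in the labels. In RNA from whole heads, fewer cells of a type and less RNA per cell cannot be told apart.

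PFOS resembles a fatty acid in shape, with a fluorinated tail. In rodents it is known as an agonist of the nuclear receptor PPAR alpha, which switches on genes of fatty acid oxidation, and for lowering blood cholesterol and circulating thyroid hormone. At 5 dpf a zebrafish larva sees with cones more than with rods, its synapses are maturing, and its liver, pancreas and gut have begun to work. Those organs lie close behind the head, so a cut at the swim bladder can include some of them.

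No gene passed the test. Of 20021 genes tested by edgeR's quasi-likelihood test, 0 had an adjusted p below 0.05, a background of 0%, and the lowest adjusted p was 0.992. At an unadjusted p below 0.05 there were 384 genes (1.92%), 101 of them higher in PFOS (0.504%) and 283 lower (1.41%). Such genes were mostly weakly expressed on the lower side, where 183 of 283 had a mean level under 1 on the log2 CPM scale (CPM standing for counts scaled to a common library size), against 43 of 101 on the higher side. Over all genes, 14287 of 20021 had a mean level of at least 1, so both sides held a larger share of weakly expressed genes. At 4 dpf, in pools that share no library with these, 121 of the 283 lay lower and 51 of the 101 lay higher; over all genes 52.5% had the same sign at both ages. By DESeq2 the count was also 0, with 479 genes at an unadjusted p below 0.05, and by limma on the deposited quantile normalised values it was 0 with 316. The count at an unadjusted p below 0.05 was 901 without PFOS replicate C, 693 without DMSO replicate E and 653 without DMSO replicate G, with 0 called each time. The 384 genes of the main fit are fewer than a threshold of 0.05 would pass on average if no gene differed. The same holds for the main fits of the other edgeR tests given further on.

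How far a change could have gone unseen follows from the intervals. The typical (median) standard error per gene was 0.25 log2 units, and for 78.9% of genes the 95% interval lay within 1 log2 unit of 0, which leaves out a doubling or a halving. For 38.8% of genes it lay within a 1.5-fold change. Among the 14287 genes with a mean level of at least 1 log2 CPM, 13225 had an interval within 1 log2 unit of 0, and 28 had a fitted fold change of at least 1 log2 unit. The libraries summed to between 16965122 and 28926584 counts. Their median correlation with the other 11 ran from 0.963 in DMSO replicate B to 0.977 in PFOS replicate I.

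**Figure D1:**
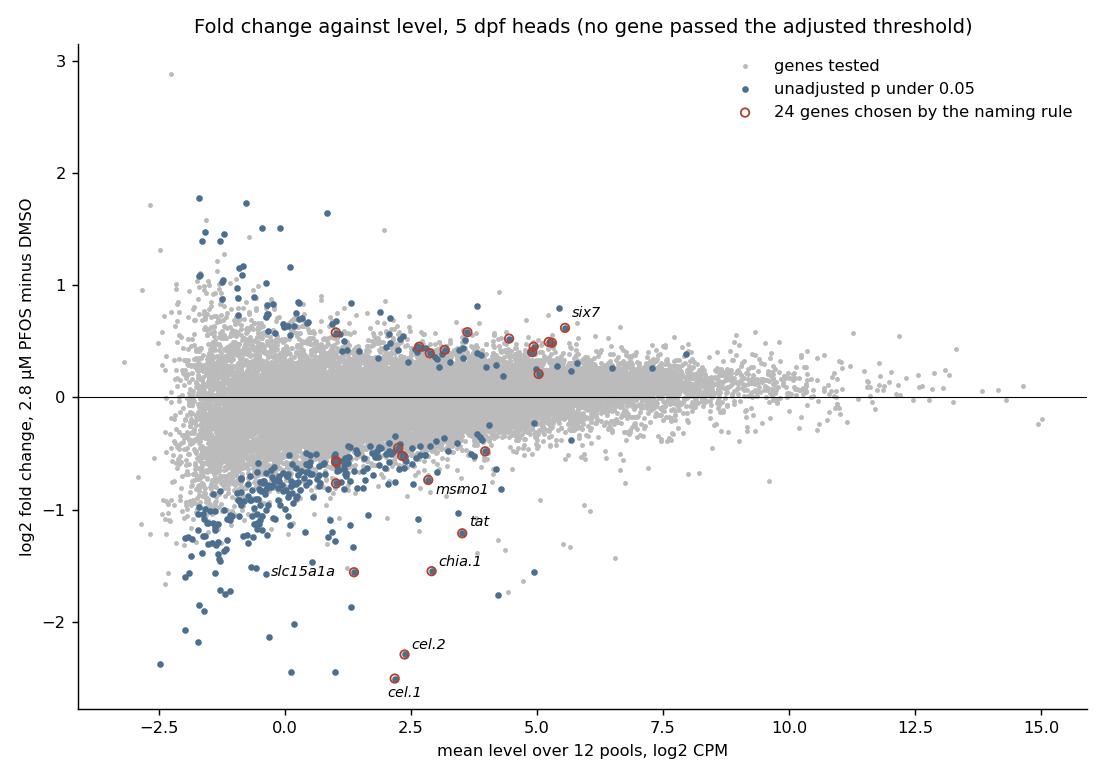
Log2 fold change of each tested gene (2.8 µM PFOS minus DMSO, 5 dpf) against its mean log2 CPM over the 12 pools. Blue points had an unadjusted p below 0.05, and red circles mark the 24 genes chosen by the naming rule, with six7 at 0.62 and cel.1 at -2.51.

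Tissue markers were those of a head together with organs behind it. The neuronal gene elavl3 lay between 137 and 367 CPM in the 12 pools, the cone transducin gnat2 between 1380 and 3000 CPM, the cartilage collagen col2a1a between 14300 and 26300 CPM, and the epidermal keratin krt4 between 3960 and 8600 CPM. Pancreas, liver, gut and heart markers were present in unequal amounts. The pancreatic chymotrypsinogen ctrb1 lay between 20.7 and 322 CPM in PFOS pools and between 0.184 and 1690 CPM in DMSO pools. The liver gene fabp10a lay between 29.7 and 267 CPM over all pools, and the cardiac myosin light chain myl7 between 0.995 and 3.71 CPM. Summed over 55 hepatocyte genes, pools held 4405 to 11320 CPM in PFOS and 4265 to 18300 CPM in DMSO. The 27 pan-neuronal genes summed to 2351 to 3871 CPM in PFOS and 2226 to 3937 CPM in DMSO. Of the defining markers, cpa1, a pancreatic carboxypeptidase, was at 0 counts in DMSO replicate E and no other stood at 0 in any of the 12 pools.

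Among named genes with a mean level of at least 1 log2 CPM, the smallest p was that of six7, a homeobox transcription factor that zebrafish cones need to express green opsins (GRCz11 chromosome 7, 7401692 to 7420302, minus strand). In PFOS pools it lay between 5.63 and 6.21 log2 CPM with a median of 5.84, and in DMSO pools between 5.01 and 5.56 with a median of 5.22. Every PFOS pool was above every DMSO pool. Fitted, six7 was higher by 0.62 ± 0.16 (log2 fold change ± SE, n = 6 and 6; 95% interval 0.31 to 0.93), with an unadjusted p of 0.000235 and an adjusted p of 0.992 by edgeR. At 0.88 and 1.57 µM, read against the same DMSO pools, it differed by 0.10 and 0.29 log2 units, and at 4 dpf, against the DMSO pools of that age, by 0.01. The trend over the 4 concentrations was 0.23 ± 0.05 log2 units per µM (adjusted p = 1.0 by edgeR), the smallest unadjusted p on the higher side of that test among genes the naming rule allows.

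A cone gene and a gene of the photoreceptor synapse were also among the 12 chosen on the higher side, while the cone lists given further on lay on balance slightly lower. The cone channel subunit cnga3b (chromosome 1, 10771457 to 10776548, plus strand), which opens to cyclic GMP and carries the dark current, lay between 4.33 and 4.91 log2 CPM in PFOS pools, median 4.76, and between 3.91 and 4.62 in DMSO pools, median 4.13. PFOS replicate F, the lowest of its group, lay below DMSO replicates C and E, so the groups overlapped, and the fitted difference was 0.52 ± 0.21 (adjusted p = 0.992 by edgeR). The synaptic protein lrit3a (chromosome 14, 36328425 to 36345176, minus strand), needed for the response of ON bipolar cells to light, ran from 5.18 to 6.00 log2 CPM with a median of 5.43 in PFOS and from 4.66 to 5.40 with a median of 4.91 in DMSO. PFOS replicate F stood alone at the top, and only DMSO replicate B reached into the PFOS range. Its fitted difference was 0.49 ± 0.19 (adjusted p = 0.992 by edgeR).

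**Figure D2:**
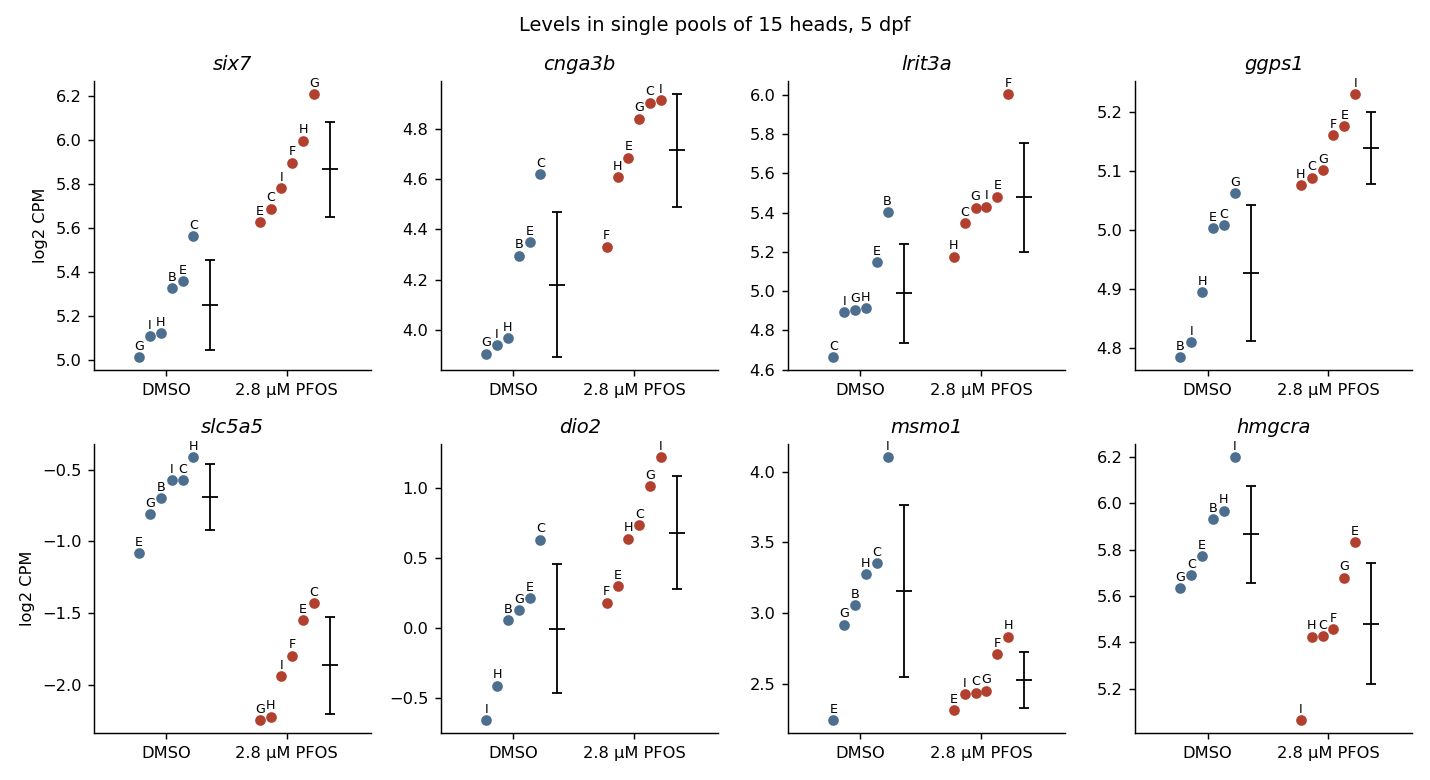
Log2 CPM of 8 genes in each pool, with letters for replicates; points are sorted by value and spread sideways within a group, bars show mean ± SD (n = 6), and each panel has its own vertical axis. In six7, ggps1 and slc5a5 the groups do not overlap; in the other 5 they do.

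Over the retina the picture was mixed. Among 27 tested transcription factors of photoreceptors, 19 lay higher and 8 lower, with a median log2 fold change of 0.13, against a median of -0.0047 and 49.3% higher over all genes tested. mef2cb, a MADS-box transcription factor, lay higher by 0.26 ± 0.13, and thrb, the thyroid hormone receptor whose isoform specifies red cones in zebrafish, differed by -0.39 ± 0.24. Cone phototransduction genes had a median of -0.07, with 11 of 27 higher. Of these, gnat2, the alpha subunit of cone transducin, lay higher by 0.32 ± 0.17, and gucy2d, a guanylate cyclase that restores cyclic GMP, by 0.24 ± 0.14. Rod phototransduction genes had a median of 0.13, with 18 of 27 higher, with the disc-rim protein gene prph2b at 0.39 ± 0.18, the transducin beta subunit gene gnb1a at 0.33 ± 0.20, and the cyclase activator gene guca1a at -0.71 ± 0.43. Without PFOS replicate F the median of the transcription factors was 0.06, and without PFOS replicate I that of the rod genes was 0.05. No member of these 3 lists was called. Respectively 2, 1 and 1 had an unadjusted p below 0.05, all on the higher side, against 0.504% of all genes.

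Opsin genes went both ways. The red opsin genes opn1lw1 and opn1lw2 lie side by side on chromosome 11 (25477643 to 25480038 and 25481046 to 25483207) and are near-identical copies, so reads could have been split between them. opn1lw2 had a median of 9.61 log2 CPM in PFOS pools and 9.34 in DMSO pools, and opn1lw1, with 9 to 26 counts per PFOS pool and 14 to 70 per DMSO pool, differed by -0.82 ± 0.38. opn1lw2 differed by 0.30 ± 0.25, and in both genes the groups overlapped. The green opsin opn1mw2 differed by -0.47 ± 0.30. Over the 6 opsin genes tested the median was -0.06, with 2 higher.

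Inner retinal genes had a median of 0.15, with 16 of 23 higher and none at an unadjusted p below 0.05. nyx, a surface protein of ON bipolar cells, differed by 0.42 ± 0.23, and trpm1a, the cation channel those cells open in light, by 0.30 ± 0.17. In nyx the medians were 4.21 log2 CPM in PFOS and 3.43 in DMSO, but the ranges of 3.42 to 4.61 and 3.28 to 4.53 overlapped over most of their length. ptf1a, a factor of amacrine cells and pancreas, differed by -0.96 ± 0.59 at a level near the limit of detection.

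The other genes of the higher side chosen by the naming rule came from several processes. kcnn1b, a calcium-activated potassium channel subunit, lay between 0.87 and 1.6 log2 CPM in PFOS and between 0.31 and 0.95 in DMSO, a difference of 0.58 ± 0.22. ddit4, an inhibitor of mTORC1 that stress induces in vertebrates, lay between 3.50 and 4.33 against 2.88 and 3.72, a difference of 0.58 ± 0.23, and hbp1, an HMG-box repressor, between 4.76 and 5.55 against 4.52 and 4.95, a difference of 0.45 ± 0.18. In all 3 the groups overlapped, in kcnn1b and hbp1 only at the edges. In ddit4, DMSO replicate B lay above PFOS replicates E, H and I. The remaining genes were cuedc1b at 0.42 ± 0.14, dym (a Golgi protein) at 0.39 ± 0.14, ankrd46a at 0.40 ± 0.16, auts2b at 0.49 ± 0.19 and tagapb at 0.45 ± 0.18. At 4 dpf the log2 fold changes of these 8 genes ranged from -0.14 in dym to 0.42 in ddit4.

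Genes of cholesterol synthesis lay lower more often than not, and a branch gene was among the 7 that lay higher. The pathway builds sterols from acetyl-CoA, with the reductase encoded by hmgcra and hmgcrb as its rate-limiting step, and a side branch makes geranylgeranyl groups that are attached to proteins. Of 31 genes, 24 had a negative log2 fold change and 7 a positive one, with a median of -0.22; 6 of the lower and 1 of the higher had an unadjusted p below 0.05, against 1.41% and 0.504% of all genes. msmo1, which removes methyl groups from sterol intermediates (chromosome 1, 20916551 to 20928773, minus strand), ran from 2.32 to 2.83 log2 CPM with a median of 2.44 in PFOS pools and from 2.25 to 4.1 with a median of 3.17 in DMSO pools. All PFOS pools lay below 5 of the 6 DMSO pools, and DMSO replicate E lay below them all; the fitted difference was -0.74 ± 0.27 (adjusted p = 0.992 by edgeR).

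hmgcra (chromosome 5, 50972485 to 50992776, minus strand) ran from 5.07 to 5.83 log2 CPM with a median of 5.44 in PFOS pools and from 5.63 to 6.20 with a median of 5.85 in DMSO pools. The groups overlapped through PFOS replicates E and G, and the difference was -0.38 ± 0.15. ggps1, which makes geranylgeranyl diphosphate (chromosome 13, 49727333 to 49769373, plus strand), was 1 of the 7 genes on the other side. It ran from 5.08 to 5.23 log2 CPM with a median of 5.13 in PFOS and from 4.78 to 5.06 with a median of 4.95 in DMSO, without overlap, a difference of 0.21 ± 0.08. All 3 genes had an adjusted p of 0.992 by edgeR's test.

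As a list, the cholesterol genes had a smaller SD among PFOS pools than among DMSO pools, a difference that was not tested. The mean level of the 31 genes was 3.11 ± 0.07 log2 CPM (SD, n = 6) in PFOS and 3.31 ± 0.29 in DMSO. PFOS pools lay between 3.04 and 3.22, DMSO replicates E and G at 3.00 and 2.99, and DMSO replicate I at 3.76. The DMSO pools therefore lay on both sides of the PFOS pools. Without DMSO replicate I the median of the list was -0.14, and without replicate E it was -0.32. The same list was 3.00 ± 0.09 in DMSO and 3.08 ± 0.14 in PFOS at 4 dpf, where the median log2 fold change was 0.08.

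All 14 tested genes of bile acid synthesis and transport lay lower, with a median of -0.30. Of these, 2 had an unadjusted p below 0.05, against 1.41% of all genes on the lower side. cyp7a1, the rate-limiting enzyme of bile acid synthesis, ran from -1.23 to 1.76 log2 CPM with a median of 0.66 in PFOS and from -0.45 to 2.85 with a median of 1.93 in DMSO. nr0b2a, a nuclear receptor that represses cyp7a1 in mammals, ran from -2.29 to -0.90 with a median of -1.91 in PFOS and from -2.52 to -0.27 with a median of -0.81 in DMSO. Both sets of pools overlapped, and the differences were -1.2 ± 0.51 and -1.12 ± 0.47, so the enzyme and its repressor lay on the same side. Counts were low, with 2 to 9 per PFOS pool for nr0b2a. amacr, a racemase that acts on bile acid intermediates, differed by -0.52 ± 0.31. The 14 genes stayed lower without DMSO replicates B and E, and also as a difference of the group means of log2 CPM, where the median was -0.25; the fitted median was -0.15 without DMSO replicate I and -0.43 without PFOS replicate C. Their mean level was 0.86 ± 0.39 log2 CPM in PFOS and 1.18 ± 0.50 in DMSO. This level moved with that of the liver list in single pools, being lowest in replicate E of both groups, and the part of liver content in it was not tested.

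**Figure D3:**
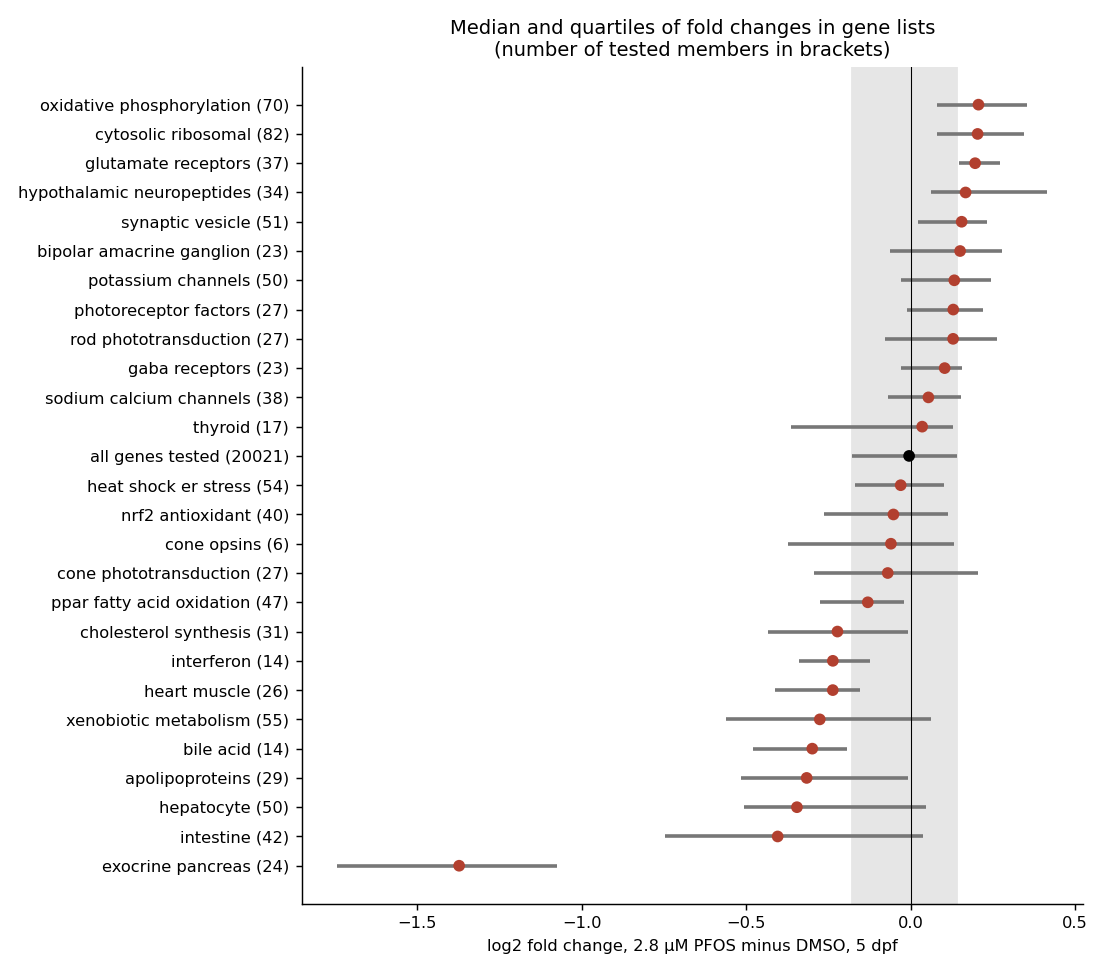
Median (points) and quartiles (lines) of log2 fold changes, 2.8 µM PFOS minus DMSO at 5 dpf, in gene lists; the grey band shows the quartiles of all 20021 genes tested and the black point their median. Exocrine pancreas lies at -1.37, glutamate receptors at 0.20 and cholesterol synthesis at -0.22.

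Pancreatic enzyme genes had the lowest median of the 64 lists, and it rested on a single control pool. All 24 tested genes were lower in the fit, with a median log2 fold change of -1.37. An unadjusted p below 0.05 was reached by 8 of them, against 1.41% of all genes on the lower side. cel.1, a carboxyl ester lipase secreted into the gut (chromosome 21, 11401247 to 11411366, plus strand), ran from -0.51 to 2.80 log2 CPM with a median of 2.2 in PFOS pools and from -2.92 to 6.62 with a median of 2.69 in DMSO pools. The PFOS pools thus lay inside the DMSO range, between replicate E at 1 count and replicate B at 81.8 CPM. The fitted difference was -2.51 ± 0.80, since the fit weighs mean counts and the highest pool dominates them, while the group means of log2 CPM were 1.81 ± 1.25 and 2.55 ± 3.32. Its neighbour cel.2 (chromosome 21, 11385031 to 11393980, plus strand), a similar copy, differed by -2.29 ± 0.81. cpa1 differed by -2.45 ± 0.75 and pdia2, a pancreatic disulfide isomerase, by -1.52 ± 0.50; none was called (adjusted p = 0.992 by edgeR).

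The level of the pancreas list in single pools shows the spread. It was 2.55 ± 1.28 log2 CPM (SD, n = 6) in PFOS pools, from 0.47 in replicate G to 3.80 in replicate H, and 2.77 ± 2.92 in DMSO pools, where replicate E had -2.11 and replicate B 6.44. The means differed by far less than the pools within a group. Without DMSO replicate B the median log2 fold change was -0.05, without replicates B and E it was -0.37, and as a difference of group means it was -0.20. On the deposited quantile normalised scale it was 0.18, of the opposite sign. Summed over the 30 genes found in the table, pancreas genes took between 78.3 and 1240 CPM in PFOS pools and between 6.59 and 6460 CPM in DMSO pools. At 4 dpf the list lay at -2.14 ± 0.49 in PFOS and -1.86 ± 0.54 in DMSO, with both means below at least 11 of the 12 pools at 5 dpf.

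**Figure D4:**
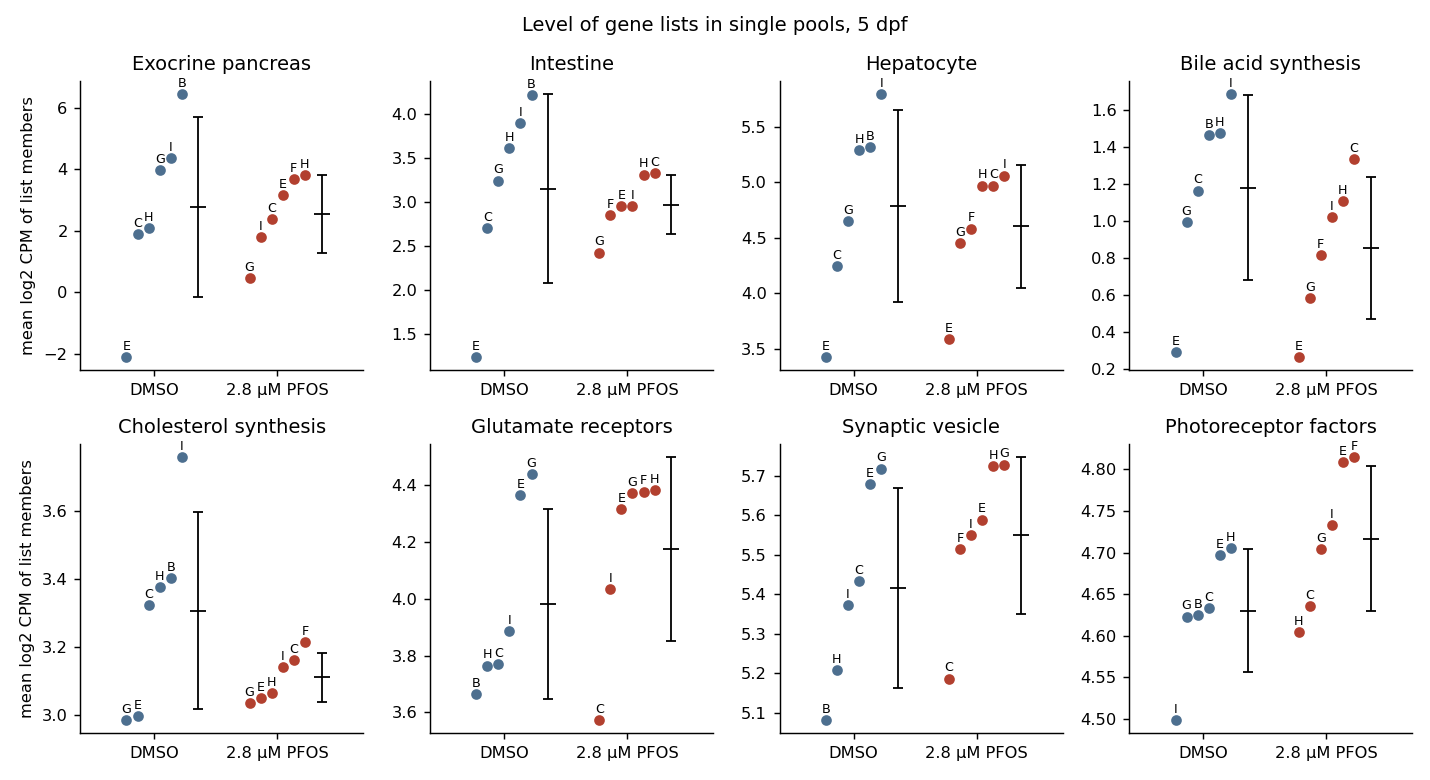
Mean log2 CPM of the tested members of 8 gene lists in each pool, with letters for replicates; points are sorted by value and spread sideways within a group, bars show mean ± SD (n = 6), and each panel has its own vertical axis. Pancreas levels in DMSO lie between -2.11 (replicate E) and 6.44 (replicate B) and enclose all PFOS pools.

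Gut and liver lists showed a weaker form of the same spread. Of 42 intestinal genes 31 lay lower, with a median of -0.40, and of 50 hepatocyte genes 35 lay lower, with a median of -0.35. An unadjusted p below 0.05 was reached by 4 and 2 of them, all lower, against 1.41% of all genes. Single pools moved both medians: that of gut genes was -0.24 without DMSO replicate B and -0.57 without PFOS replicate C, and that of liver genes -0.12 without DMSO replicate I and -0.51 without DMSO replicate E. chia.1, an acidic chitinase of the gut, ran from 1.2 to 3.48 log2 CPM in PFOS and from -1.21 to 6.09 in DMSO, and slc15a1a, the oligopeptide transporter of the brush border, from 0.01 to 2.03 in PFOS and from -3.49 to 4.35 in DMSO. In both, DMSO replicate E was lowest and replicate B highest of all 12 pools. The fitted differences were -1.55 ± 0.55 and -1.56 ± 0.55. slc15a1a had 0 counts in DMSO replicate E, and on the deposited quantile normalised scale its difference was 1.76, of the opposite sign. anpepb, an aminopeptidase of the brush border, differed by -1.14 ± 0.44.

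tat, a liver enzyme that breaks down tyrosine (chromosome 18, 13162728 to 13179511, plus strand), ran from 2.08 to 3.70 log2 CPM with a median of 3.40 in PFOS and from 2.19 to 5.80 with a median of 3.96 in DMSO. Replicate E was the lowest pool of both groups, and DMSO replicate I the highest pool; the difference was -1.21 ± 0.43. Among lipoprotein genes 23 of 29 lay lower (median -0.32, but -0.12 without DMSO replicate I). lipca, the hepatic lipase, differed by -1.30 ± 0.60 with 4 to 25 counts per PFOS pool, apoea by -1.22 ± 0.62 with a single count in one DMSO pool, and pltp, which transfers phospholipids between lipoproteins, by -0.34 ± 0.19. The SD of a gene was larger among DMSO than among PFOS pools for 23 of 24 pancreas, 39 of 42 gut and 42 of 50 liver genes, against 57.6% of all genes.

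Targets of PPAR and enzymes of fatty acid oxidation, the response PFOS is known for in rodent liver, had a median of -0.13 (-0.06 without DMSO replicate I, -0.22 without PFOS replicate C) with 11 of 47 higher and none called. Of 41 of them the 95% interval lay within 1 log2 unit of 0. acsl1b, an acyl-CoA ligase, ran from 3.58 to 3.94 log2 CPM in PFOS and from 3.49 to 4.59 in DMSO, a difference of -0.38 ± 0.16. acsl5, a second ligase that is strong in gut, differed by -1.05 ± 0.49, and acot11a, a thioesterase, by 0.39 ± 0.23. Among xenobiotic enzymes 39 of 55 lay lower (median -0.28, or -0.17 without DMSO replicate I and -0.43 without DMSO replicate E). Of these 39, 5 had an unadjusted p below 0.05, against 1.41% of all genes on the lower side. sult1st2, a sulfotransferase, differed by -1.75 ± 0.65, cyp2x9 by -1.23 ± 0.47 and cyp2x7 by -1.24 ± 0.51, each with fewer than 25 counts in every PFOS pool and its lowest DMSO pool in replicate E. Antioxidant genes of the Nrf2 pathway (median -0.05, 17 of 40 higher), p53 targets (median -0.05, 10 of 26 higher) and heat shock and endoplasmic reticulum stress genes (median -0.03, 25 of 54 higher) had no called gene either.

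Other lower genes of the naming rule were not of the digestive organs by name. sri, a calcium-binding protein of the sarcoplasmic reticulum in mammals, ran from 1.73 to 2.3 log2 CPM in PFOS and from 2.01 to 3.13 in DMSO, and its difference was -0.52 ± 0.18. ripk2, the kinase that relays signals of NOD receptors, ran from 0.14 to 1.26 against 0.60 to 1.61, with DMSO replicate B far below the other controls, a difference of -0.58 ± 0.20. sgpl1, the lyase that degrades sphingosine 1-phosphate, differed by -0.48 ± 0.17 (-0.62 to -0.29 when single pools were left out). Its DMSO pools ran from 3.28 log2 CPM in replicate E to 4.98 in replicate B, which were also the lowest and highest controls of the gut list. clp1, an RNA kinase of tRNA processing, differed by -0.57 ± 0.20, pyroxd2 by -0.45 ± 0.16 and mastl, a kinase of mitotic entry, by -0.77 ± 0.28. In each of these 6 genes the groups overlapped.

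Among thyroid genes the iodide transporter lay lower and the activating deiodinase higher, and the groups separated only in the transporter. slc5a5, the sodium iodide symporter through which the thyroid takes up iodide (chromosome 8, 13364950 to 13382352, plus strand), ran from -2.24 to -1.43 log2 CPM with a median of -1.87 in PFOS and from -1.08 to -0.41 with a median of -0.64 in DMSO. Every PFOS pool was below every DMSO pool, on 3 to 7 counts per PFOS pool and 9 to 18 per DMSO pool. The difference was -1.46 ± 0.45 (unadjusted p = 0.0024, adjusted p = 0.992 by edgeR), and at 0.88 and 1.57 µM, against the same DMSO pools, it was -0.34 and -0.74. At 4 dpf it was 0.45, and the difference between ages was -1.91 ± 0.69 (adjusted p = 0.948 by edgeR).

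dio2, which turns the prohormone thyroxine into active hormone (chromosome 17, 16873417 to 16876753, plus strand), ran from 0.18 to 1.22 log2 CPM with a median of 0.69 in PFOS and from -0.65 to 0.63 with a median of 0.09 in DMSO. DMSO replicate C lay above PFOS replicates E and F, so the groups overlapped; the difference was 0.71 ± 0.23. dio3b, which inactivates the hormone, differed by -0.52 ± 0.30. Over the 17 thyroid genes tested the median was 0.04 with 10 higher. In each direction 1 gene had an unadjusted p below 0.05, against 0.504% of all genes higher and 1.41% lower.

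Genes of synaptic transmission lay slightly higher, with wide overlap between pools. Of 37 glutamate receptor genes 34 lay higher, with a median of 0.20 and an interval within 1 log2 unit of 0 in all 37; none had an unadjusted p below 0.05. The kainate receptor gene grik1b differed by 0.27 ± 0.14, and the AMPA receptor genes gria4b and gria3a by 0.32 ± 0.21 and 0.27 ± 0.20. In the synaptic vesicle list 41 of 51 lay higher (median 0.16), among potassium channels 34 of 50 (median 0.13) and among GABA receptors, which carry inhibition, 15 of 23 (median 0.10). The vesicle genes named by the rule were rims2b at 0.20 ± 0.13, syt7a, a calcium sensor, at 0.39 ± 0.26, and sypa, synaptophysin, at 0.32 ± 0.22.

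Single pools moved these medians. The level of the glutamate receptor list was between 4.04 and 4.38 log2 CPM in 5 PFOS pools and 3.57 in replicate C, and in DMSO it was 4.37 and 4.44 in replicates E and G and between 3.67 and 3.89 in the other 4. Both groups thus held high and low pools, at 4.18 ± 0.32 and 3.98 ± 0.33 (SD, n = 6). The pools low in these genes were also the low ones for other neuronal lists: summed pan-neuronal genes were lowest in PFOS replicate C at 2351 CPM and DMSO replicate B at 2226 CPM. Skeletal muscle genes summed highest in those 2 pools, at 49050 and 51270 CPM. Without DMSO replicates B and E the median of GABA receptors was -0.02, and without DMSO replicate B that of sodium and calcium channels was -0.04, against 0.05 with all pools. Without DMSO replicate B the vesicle median was 0.06, without DMSO replicate H those of potassium channels and glutamate receptors were 0.05 and 0.12, and without DMSO replicate G the medians of glutamate receptors and GABA receptors were 0.29 and 0.21. Whether the share of brain in a pool set these levels was not tested.

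Within the potassium channels kcnj9, an inward rectifier that G proteins open, differed by 0.65 ± 0.29, and kcnj2a, an inward rectifier of muscle and vessels, by -0.38 ± 0.22. Among GABA receptor genes gabra5 differed by 0.29 ± 0.19, gabrr2a, a retinal receptor subunit, by 0.19 ± 0.18 and gabrp by -0.27 ± 0.29. Neuropeptide genes of the hypothalamus had a median of 0.17 with 28 of 34 higher. sst6, a somatostatin, differed by 1.03 ± 0.43 on 2 to 26 counts per pool, scg2b, a secretogranin, by 0.40 ± 0.22, and crhb, the corticotropin-releasing hormone that starts the stress axis, by 0.54 ± 0.31. crhb lay between 0.86 and 1.69 log2 CPM in PFOS and between 0.13 and 1.03 in DMSO, so the groups overlapped in a narrow band.

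Among heart muscle genes 21 of 26 lay lower (median -0.24), none at an unadjusted p below 0.05. ttn.2, a titin, ran from 6.99 to 8.74 log2 CPM in PFOS and from 7.97 to 9.64 in DMSO, a difference of -0.67 ± 0.37. nppa, natriuretic peptide of the atrium, differed by -0.54 ± 0.32 and myh6, atrial myosin, by -0.48 ± 0.30. Summed over the list, these genes were highest in replicate C and lowest in replicate G of both groups. Single heart genes did not all follow that order. nppa was highest in replicate C of both groups, but myl7 was highest in PFOS replicate G (2.35 CPM) and DMSO replicate I (3.71 CPM). Ribosomal protein genes (median 0.20, 73 of 82 higher) and nuclear genes of oxidative phosphorylation (median 0.21, 62 of 70 higher) depended on PFOS replicate F, the pool highest in both, without which their medians were 0.01 and 0.001, and on DMSO replicate B, without which they were 0.39 and 0.35.

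Complete separation of the groups was rare. In 22 genes (0.11%) the 6 PFOS and 6 DMSO pools did not overlap, 6 with PFOS higher (0.03%) and 16 with PFOS lower (0.0799%). How many genes would separate by chance was not computed, so separation alone does not mark a gene as changed. The 6 higher were six7, ggps1, samsn1b, klhl12, etfbkmt and baiap2l2a; the last 4 are named here after their values were seen. samsn1b, an adaptor protein of blood cells in mammals, ran from 5.12 to 5.51 against 4.72 to 5.08 log2 CPM (0.29 ± 0.16), klhl12, an adaptor of a ubiquitin ligase, from 1.51 to 1.91 against 0.93 to 1.48 (0.41 ± 0.19), and baiap2l2a from -0.56 to -0.37 against -2.0 to -0.57. The 16 lower genes held slc5a5 and, likewise named after their values were seen, bmpr1bb, a BMP receptor (-0.50 ± 0.19), and dhodh, an enzyme of pyrimidine synthesis (-0.68 ± 0.22).

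The effect of 2.8 µM PFOS was then compared between ages, 5 dpf minus 4 dpf, with separate DMSO pools at each age. No gene passed (0 of 20021, 0%; lowest adjusted p = 0.948 by edgeR), with 765 at an unadjusted p below 0.05 (3.82%), 412 of them with the more positive effect at 5 dpf (2.06%) and 353 with the more negative one (1.76%). sema5ba, a guidance semaphorin, lay lower by a log2 fold change of -0.40 at 4 dpf and higher by 0.39 at 5 dpf, a difference of 0.79 ± 0.25, and prkg2, a cyclic GMP-dependent kinase, went from -0.47 to 0.35, a difference of 0.82 ± 0.26. In the other direction the effect on asb12a went from 0.35 to -0.35 and vamp3, a vesicle fusion protein, from 0.48 to -0.34, differences of -0.69 ± 0.20 and -0.83 ± 0.25. A limma fit that down-weights variable libraries (sample quality weights) called 701 of 20021 genes for this comparison, 564 with the more positive effect at 5 dpf. The lowest adjusted p of that limma fit was 0.0386, close to the threshold, and 4952 genes had an unadjusted p below 0.05. No other setting called a gene for the difference between ages.

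Neuronal lists had medians of opposite sign at the 2 ages when all pools were kept. At 5 dpf, however, GABA receptors had a median of -0.02 without PFOS replicate H. Sodium and calcium channels had -0.04 at that age without DMSO replicate B. Glutamate receptors went from -0.23 at 4 dpf to 0.20 at 5 dpf, GABA receptors from -0.42 to 0.10, sodium and calcium channels from -0.41 to 0.05, potassium channels from -0.32 to 0.13 and synaptic vesicle genes from -0.20 to 0.16, beside 0.03 and -0.0047 for all genes. In these lists 4 of 37, 3 of 23, 9 of 38, 8 of 50 and 8 of 51 members had an unadjusted p below 0.05 for the difference between ages, against 3.82% of all genes, and none passed adjustment. In all 5 lists the levels of PFOS and DMSO pools overlapped at 4 dpf. GABA receptors ran from 2.15 to 3.21 log2 CPM in PFOS pools of that age and from 2.62 to 3.30 in DMSO pools. Glutamate receptors ran from 3.58 to 4.26 and from 3.55 to 4.45. One 4 dpf library, 2.8 µM replicate A, had a median correlation of 0.922 with the others of its age. Without it the 4 dpf medians of the 5 lists were -0.30, -0.32, -0.34, -0.31 and -0.22. For the difference between ages, 6, 1, 4, 3 and 6 members then had an unadjusted p below 0.05, against 648 of all 20021 genes. Ribosomal protein genes had a 4 dpf median of 0.67 with that library and 0.08 without it, and lens crystallins 0.51 and 0.07.

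**Figure D5:**
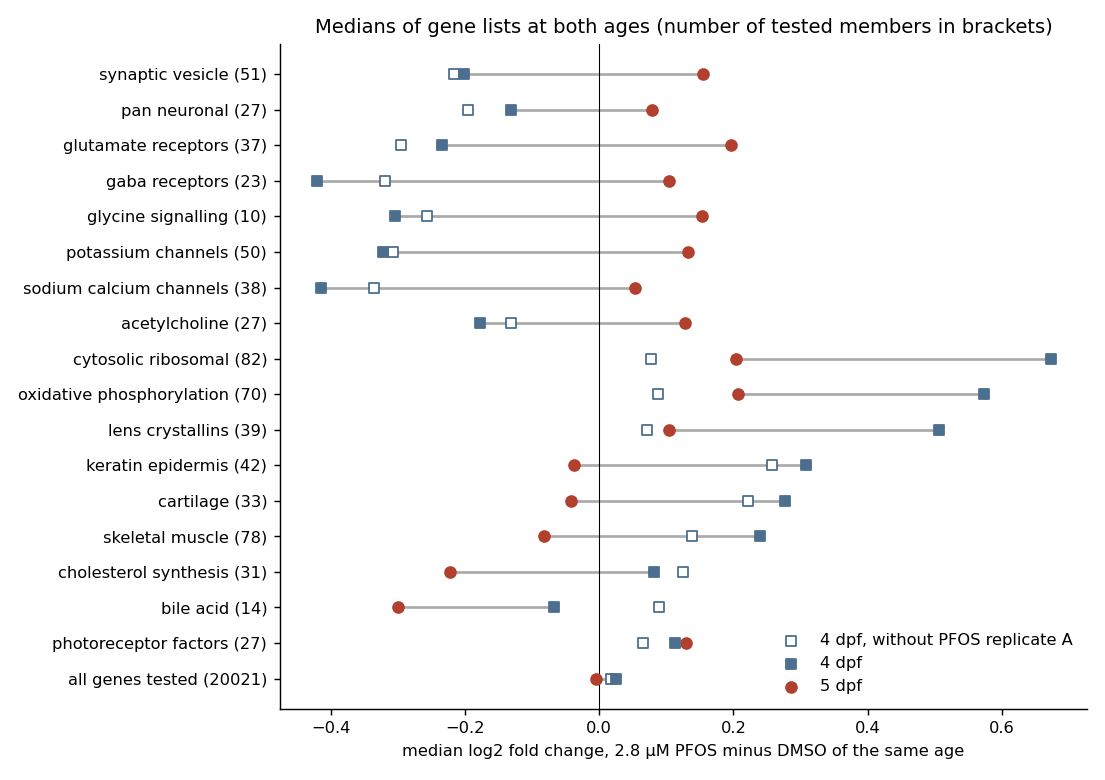
Median log2 fold change of gene lists for 2.8 µM PFOS minus DMSO of the same age, at 5 dpf (red circles), at 4 dpf (blue squares) and at 4 dpf without 2.8 µM replicate A (open squares). Glutamate receptors lie at -0.23 and 0.20 at the 2 ages; the ribosomal median at 4 dpf is 0.67 with replicate A and 0.08 without it.

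Between 2.8 and 1.57 µM at 5 dpf no gene passed either (0%; lowest adjusted p = 0.539 by edgeR), with 249 at an unadjusted p below 0.05 (1.24%). Pancreatic genes led on the higher side: cel.2 lay higher at 2.8 than at 1.57 µM by 4.52 ± 1.05 and prss59.1, a trypsin, by 3.99 ± 0.94. Levels of the pancreas list were -0.68 ± 1.6 log2 CPM at 1.57 µM and 0.67 ± 1.75 at 0.88 µM, against 2.55 ± 1.28 at 2.8 µM and 2.77 ± 2.92 in DMSO, so they did not follow the order of concentration. Against the shared DMSO pools the medians of the list were -3.03, -5.19 and -1.37 at 0.88, 1.57 and 2.8 µM. On the lower side mibp and sept5a, which encodes a septin, had the smallest p, at -0.67 ± 0.24 and -0.54 ± 0.20. The trend over 0, 0.88, 1.57 and 2.8 µM called no gene (0%; 374 at an unadjusted p below 0.05, 1.87%, of which 89 on the higher side, 0.445%, and 285 on the lower, 1.42%), and sri and ripk2 had the smallest p on its lower side among genes the naming rule allows.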

How the data were processed

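PolyA RNA of 48 pools was sequenced as single reads of 75 cycles, per the labels' protocols; libraries were randomised and sequenced in 3 pools of 16. The submitters' processing notes name GRCz11, Partek 8.0.19.0428 and STAR 2.5.3a; the sources used here name no annotation. The authors deposited expected counts for 25377 genes, 81.2% of them whole within 0.01, and quantile normalised log2 values for 20466 genes, per the file headers. Coordinates and names are those of the deposited tables.

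The expected counts were rounded, genes filtered with filterByExpr (20021 kept, with 99.94 to 99.97% of the counts of the 12 libraries), and libraries scaled by TMM. edgeR 4.0.16 in R 4.3.3 fitted its quasi-likelihood model to all 48 libraries in 8 groups, which assumes that groups vary alike, with Benjamini-Hochberg adjustment at 0.05. The 2.8 µM effect, its difference between ages, 2.8 against 1.57 µM and the trend over concentration were tested. Standard errors were obtained by dividing each fold change (log2, unsigned) by the root of its F value; log2 CPM used a prior count of 2. Levels of a list average the log2 CPM over tested members. Values given as plain CPM, for single markers and for sums over a list, were scaled by total counts alone, without the TMM factors. Those factors ran from 0.8345 in DMSO replicate B to 1.195 in DMSO replicate C among the 12 pools. Intervals follow the spread between pools within groups as estimated over all 48 libraries, not that of the 12 compared pools alone. Reads carry no molecular identifiers.

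Named genes had a gene name and a mean level of at least 1 log2 CPM; since none was called, the 12 with the smallest p in each direction were taken, up to 3 per list (with no minimum level), and 2 per direction for the other tests. A gene that the rule names is not reported here. Members and lists were chosen with earlier results of these data known: the 64 lists named 2188 members, 2007 found in the table and 1872 tested. Alternatives were RLE scaling, other filters, DESeq2 1.42.0, limma 3.58.1 on the quantile values and with sample quality weights, fits of only the groups compared, a replicate block and leaving out each library. Fits without DMSO replicates B and E, differences of group means, and list medians without 2.8 µM replicate A at 4 dpf were added after seeing the data. The fit was also run on simulated counts. These were drawn gene by gene without the shared swings between pools seen here, so their outcome is not used in the text. No library was left out of the main values.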

Additional observations from a re-analysis of the deposited data

Results flagged for a closer look

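Among 188 sets of 6 pools examined, 14 held a pool whose gap to its nearest neighbour was a larger share of the whole range than Dixon's 95% critical value; chance flags about 1 in 20 such sets. All values are log2 CPM.

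DMSO replicate E was the low pool in 7 of them. It lay at -3.49 for slc15a1a (the other 5 between 1.63 and 4.35), at -2.52 for nr0b2a (-0.88 to -0.27), at -3.49 for sult1st2 (-0.53 to 0.91), at -1.94 for cyp2x9 (0.17 to 1.03), at -2.20 for cyp2x7 (-0.37 to 0.73) and at -2.20 for acsl5 (2.06 to 3.67). The mean level of the thyroid list in the same pool was 2.23, against 2.46 to 2.59 in the others. In that pool slc15a1a and sult1st2 had 0 counts, so their level of -3.49 is set by the prior count. There nr0b2a, cyp2x9, cyp2x7 and acsl5 had 2, 4, 3 and 3 counts, so the sizes of these gaps depend on the prior count too.

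DMSO replicate B lay low for ripk2 at 0.60 (1.34 to 1.61 in the others) and for gabrp at 0.50 (1.21 to 1.6). PFOS replicate C lay low for gabrr2a at 3.84 (4.28 to 4.51) and for scg2b at 6.87 (7.39 to 7.64). PFOS replicate E lay low for dio3b at 1.39 (2.63 to 3.01). PFOS replicate F lay high for lrit3a at 6.00 (5.18 to 5.48), and DMSO replicate G lay high for cuedc1b at 3.38 (2.77 to 3.00).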

How the results depend on the processing

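No gene was called for 2.8 µM PFOS against DMSO at 5 dpf under RLE scaling, a filter of 1 CPM in 6 libraries or none, by DESeq2, limma on quantile values, only the groups compared, or without any single library, where genes at an unadjusted p below 0.05 ranged from 263 to 901. With sample quality weights 1 gene was called for that comparison (si:dkey-61n16.5), 701 for the difference between ages and 2 for the trend (si:dkey-61n16.5 and six7); the cause was not tested. The lowest adjusted p for 2.8 against 1.57 µM was 0.0557 with only the groups compared. Of 74 named genes, 73 kept their sign in every setting that gave them a value (18 to 21 settings per gene). The other, slc15a1a, was 1.76 on quantile values. Named genes were chosen by their p in these same pools, which the settings largely share, so a kept sign was likely from the start. With the replicate block 0 genes were called in each comparison (252 at an unadjusted p below 0.05 for 2.8 µM against DMSO, 259 for the difference between ages). List medians moved under the block: GABA receptors to -0.04, sodium and calcium channels to -0.06, potassium channels to 0.02, synaptic vesicle genes to 0.04, liver to -0.07, gut to -0.08, lipoproteins to -0.11, bile acid to -0.16, neutrophil genes to -0.01, ribosomal genes to 0.44 and oxidative phosphorylation to 0.37. PPAR and fatty acid oxidation genes moved to -0.03, microglia and macrophage genes to -0.05, xenobiotic enzymes to -0.10, cell cycle genes to -0.04 and neuropeptide genes to 0.27. Deviations of same-lettered pools had correlations of 0.304 (C), 0.227 (E), 0.174 (G), -0.202 (H) and 0.179 (I). Different-lettered pools ran from -0.538 (PFOS F with DMSO C) to 0.398 (PFOS H with DMSO G). Letters were not taken to pair pools in the main fit. Whether a letter marks a shared origin was not tested. Genes with few counts and the digestive genes had the widest intervals: none of 24 pancreas and 4 of 50 liver genes had one within 1 log2 unit of 0.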

Other observations

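Immune and cell cycle lists are described here with no test of a list. Of 14 tested interferon genes 12 lay lower (median log2 fold change -0.24), and 1 of them had an unadjusted p below 0.05, against 1.41% of all genes. Among neutrophil and inflammation genes 18 of 28 lay lower (median -0.18), 1 of them at an unadjusted p below 0.05. Of microglia and macrophage genes 16 of 23 lay lower (median -0.17), also with 1 at that threshold. Leaving out single pools, these medians ran from -0.39 to -0.16, from -0.36 to -0.11 and from -0.27 to -0.13, each lowest without PFOS replicate C. Of 60 cell cycle and replication genes 40 lay lower, with a median of -0.11 (-0.04 without PFOS replicate H, -0.19 without PFOS replicate C). Of these 40, 3 had an unadjusted p below 0.05, against 1.41% of all genes on the lower side. Immediate early genes, which neurons switch on with activity, had a median of 0.17 with 29 of 37 higher, and it was -0.03 without PFOS replicate F and 0.26 without DMSO replicate B. No member of these lists was called by edgeR's test.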
